A study of Arabidopsis thaliana with 18 samples.

Results

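The genes described here are the 62 of 32678 counted Arabidopsis genes whose transcripts were scarce 6 and 12 h after a mock spray and abundant after 24 h. They were chosen on the mock libraries: a member had a mean of at least 10 CPM (counts per 1000000 gene counts of the library) in mock leaves at 24 h, and this mean plus 0.5 was at least 8 times the mean plus 0.5 both at 6 h and at 12 h. The libraries came from leaves of ED-P4E1, a line in the Col-0 ecotype that lacks functional copies of the immune regulators EDS1 and PAD4 (eds1-2 pad4-1) and carries EDS1 under the constitutive CaMV 35S promoter and PAD4 under an estradiol-inducible promoter. Plants were 4 weeks old, grown at 22°C with 10 h of light a day, and were sprayed either with 10 uM estradiol or with 0.2% DMSO as the mock, both with 0.01% of a wetting agent. The DMSO content of the estradiol spray is not given, so any difference in solvent cannot be told apart from estradiol. Polyadenylated RNA was counted in 3 libraries for each spray at 6, 12 and 24 h, so that all 6 groups carry both mutations and both transgenes. Estradiol-sprayed leaves without the inducible transgene were not analysed here. The labels give no clock time for the spray, so hours after the spray and time of day cannot be told apart, and the labels do not say whether the replicates are different plants, so a p-value here reflects only how far the 3 libraries of a group lie apart.

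Many leaf transcripts follow the day. The MYB-like factors CCA1 and LHY are made around dawn in Arabidopsis, bind the promoters of evening genes and repress them, and are themselves repressed later in the day by the PRR proteins, while the related factor RVE8 activates evening genes. Light received through phytochromes, cryptochromes and the UV-B receptor stabilises the factors HY5 and HYH, which bind G-box sequences and switch on flavonoid and photoprotection genes. Starch is laid down in the light and broken down at night, and several of its enzymes have strongly daily transcripts.

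The sequences upstream of the members are shown first, because one short motif was present in more of them than in other genes. Each sequence is the 300 bases before the RefSeq gene start in TAIR10.1, written 5′ to 3′ on the gene's strand, and capitals mark a G-box (CACGTG), the morning element (CCACAC), the CCA1-binding site (AAAAATCT) or the evening element (AAAATATCT) on either strand. The submitters name TAIR10 as their build, and the positions given here are those of TAIR10.1. The opening pair belongs to the clock factors. LHY, whose smaller ratio in mock was the largest of the members, has its window at chr1:37872-38171 on the minus strand, with a G-box 75 bases and a morning element 181 bases before the gene start. CCA1 has its window at chr2:19245291-19245590 on the plus strand, with a G-box 188 bases before the start.

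LHY: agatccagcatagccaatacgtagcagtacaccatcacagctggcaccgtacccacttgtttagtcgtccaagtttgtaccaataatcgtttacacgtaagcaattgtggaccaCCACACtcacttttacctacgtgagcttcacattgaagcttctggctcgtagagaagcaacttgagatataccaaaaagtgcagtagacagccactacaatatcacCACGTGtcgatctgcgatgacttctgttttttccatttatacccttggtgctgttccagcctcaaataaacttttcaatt
CCA1: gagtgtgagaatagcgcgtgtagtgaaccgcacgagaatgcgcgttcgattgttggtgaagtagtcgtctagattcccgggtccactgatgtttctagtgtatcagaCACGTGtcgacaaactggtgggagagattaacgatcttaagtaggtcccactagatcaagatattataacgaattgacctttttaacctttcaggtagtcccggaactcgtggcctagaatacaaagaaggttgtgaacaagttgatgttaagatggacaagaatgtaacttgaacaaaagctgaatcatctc

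The next 3 windows belong to light-related genes with a G-box and, like that of CCA1, were picked after the motif counts were known. TT4 encodes chalcone synthase, the entry enzyme of flavonoid synthesis (chr5:4488176-4488475, plus strand, G-box 228 bases before the start). CHIL encodes a chalcone isomerase-like protein that helps it (chr5:1562986-1563285, plus strand, 62 bases), and ELIP1 encodes an early light-induced protein of the thylakoid (chr3:8085670-8085969, minus strand, 61 bases).

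TT4: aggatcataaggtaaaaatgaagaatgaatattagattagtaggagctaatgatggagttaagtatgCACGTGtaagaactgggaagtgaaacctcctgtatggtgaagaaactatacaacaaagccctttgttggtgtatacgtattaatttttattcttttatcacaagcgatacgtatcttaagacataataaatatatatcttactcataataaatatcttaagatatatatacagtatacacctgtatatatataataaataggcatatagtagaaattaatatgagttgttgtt
CHIL: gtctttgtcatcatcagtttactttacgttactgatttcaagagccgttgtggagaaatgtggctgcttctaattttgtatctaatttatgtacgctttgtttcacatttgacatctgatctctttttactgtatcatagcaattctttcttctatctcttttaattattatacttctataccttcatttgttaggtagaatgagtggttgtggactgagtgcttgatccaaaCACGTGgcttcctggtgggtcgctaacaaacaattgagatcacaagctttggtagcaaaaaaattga
ELIP1: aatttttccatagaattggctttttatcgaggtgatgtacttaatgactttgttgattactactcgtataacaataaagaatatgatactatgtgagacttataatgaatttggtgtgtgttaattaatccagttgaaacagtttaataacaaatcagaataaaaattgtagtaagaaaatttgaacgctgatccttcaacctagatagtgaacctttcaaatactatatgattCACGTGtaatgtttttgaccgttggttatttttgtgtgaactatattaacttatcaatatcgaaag

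The last 3 were chosen by level or by size of rise. AT2G27420, which has no symbol, had the morning element at 31 and at 12 bases (chr2:11727655-11727954, minus strand). VTC2, whose enzyme makes the first committed step of vitamin C synthesis, had 1 CCA1-binding site, read on the other strand 187 bases before the start (chr4:13501702-13502001, minus strand). GBSS1, the granule-bound starch synthase that makes amylose, had none of the 4 (chr1:11923867-11924166, minus strand), nor had the window of AT1G55960.

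AT2G27420: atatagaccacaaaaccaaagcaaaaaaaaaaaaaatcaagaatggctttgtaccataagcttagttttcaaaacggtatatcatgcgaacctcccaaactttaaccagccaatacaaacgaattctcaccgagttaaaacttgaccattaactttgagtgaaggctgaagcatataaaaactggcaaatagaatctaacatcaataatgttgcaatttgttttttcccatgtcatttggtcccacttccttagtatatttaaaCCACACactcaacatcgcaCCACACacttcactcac
VTC2: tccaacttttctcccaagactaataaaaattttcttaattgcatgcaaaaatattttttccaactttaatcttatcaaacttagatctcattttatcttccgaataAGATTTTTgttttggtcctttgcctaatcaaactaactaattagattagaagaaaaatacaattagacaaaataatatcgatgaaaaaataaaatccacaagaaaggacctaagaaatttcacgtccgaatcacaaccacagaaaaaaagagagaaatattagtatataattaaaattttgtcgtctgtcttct
GBSS1: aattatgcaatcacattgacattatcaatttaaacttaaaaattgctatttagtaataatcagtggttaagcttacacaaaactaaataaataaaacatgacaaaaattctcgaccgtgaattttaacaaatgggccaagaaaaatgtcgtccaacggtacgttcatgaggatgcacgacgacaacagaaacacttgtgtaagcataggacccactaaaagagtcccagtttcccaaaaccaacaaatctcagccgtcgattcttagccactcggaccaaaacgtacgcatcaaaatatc

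Of 61 protein-coding members 17 held a G-box in this window, 27.9%, against 7.18% of the windows of 26711 protein-coding genes of the count table and 8.37% of 9923 with a mean of at least 10 CPM in mock leaves at 24 h. The 17 included 4 MYB-like genes of the clock family (LHY, CCA1, ASG4 and RVE1), TT4 and CHIL, ELIP1 and the carotenoid hydroxylase gene BETA-OHASE 2. They also included MIPS2, RD20, ERD9, RXW8, BMY3, NAP, HSFA2, SP1L4 and AT1G19490, which have other roles. The morning element was in the windows of 9 members, 14.8%, against 7.24% of all. The CCA1-binding site was in 7, 11.5% against 8.0%, and the evening element in 3, 4.92% against 2.83%. The other motifs searched on both strands were the HUD element CACATG (7 members, 11.5% against 13.1%), the C-repeat core CCGAC (6, 9.84% against 13.8%), the heat shock unit GAANNTTC (5, 8.20% against 11.4%) and the telo-box AAACCCT (3, 4.92% against 8.44%). The evening element and the CCA1-binding site do not contain each other, and a window counts once per motif. These shares are descriptions of letters in a window and were not tested.

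**Figure D1:**
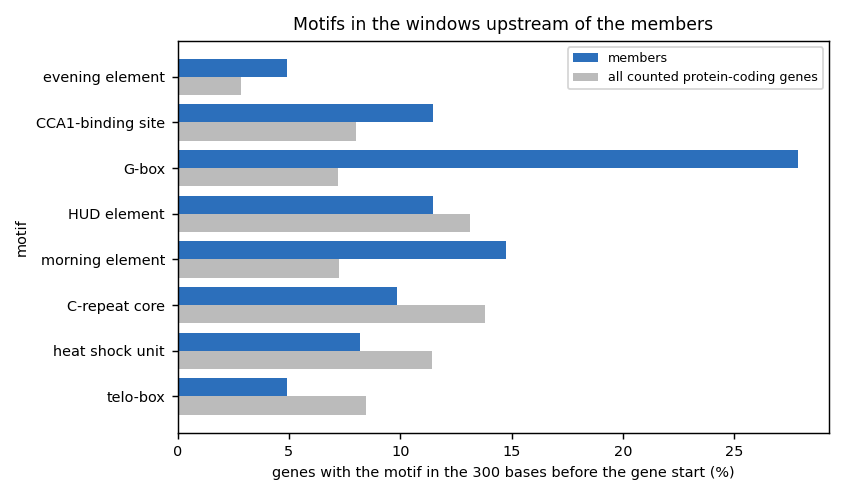
Share of genes, in percent, that hold each of 8 motifs in the 300 bases before the gene start: blue bars are the 61 protein-coding members, grey bars all 26711 protein-coding genes of the count table. The G-box bar of the members reaches 27.9% beside 7.18%, and the other pairs lie closer together.

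The libraries held 19066152 to 48066561 gene counts, so that 3 counts, the limit that a count of 0 allows, equal 0.0624 to 0.157 CPM. These limits and the intervals below cover counting error only. PAD4 had 121 to 448 CPM in the 9 estradiol libraries and 12.8 to 30.7 CPM in the 9 mock libraries, and was higher with estradiol at 6, 12 and 24 h by edgeR's quasi-likelihood test (adjusted p = 0.000119, 1.88e-07 and 3.05e-08), while EDS1 was called at none of the 3 times. All 11 mesophyll marker genes were detected in every group. The 16 flower and seed markers summed to at most 2.86 CPM in any library, and 10 to 12 of them were at 0 in a whole group. A list of 11 root markers summed to between 108 and 286 CPM, and 3 to 5 of these were at 0 in a whole group.

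In mock leaves the members together made up 0.126 to 0.131% of a library's gene counts 6 h after the spray. This share was 0.0598 to 0.0639% after 12 h and 1.78 to 1.95% after 24 h. The median member had a mean of 5.80 CPM at 6 h, 2.54 CPM at 12 h and 134 CPM at 24 h, with means at 24 h from 10.2 CPM (SP1L4) to 4990 CPM (VTC2). These values chose the members and carry no test. What the choice did not fix is the order of the earlier times: 51 members were lower at 12 h than at 6 h in the mock means and 11 were higher. The share of all genes that were lower at 12 h was not counted, so this order is not read as particular to the members. The smaller of a member's ratios ran from 8.11 to 187, with a median of 13.1. Just inside the ratio limit were SP1L4 (8.11), C4H (8.21), RXW8 (8.53) and BBX31 (8.88), and just outside were IAGLU (7.98), AT3G27350 (7.97), IAMT1 (7.89) and AT1G80130 (7.79). Just inside the level limit were SP1L4 (10.2 CPM), BBX31 (12.9 CPM) and ELIP2 (16 CPM), and just outside were PP2-A10 (7.94 CPM), ABCF2 (7.28 CPM) and AT4G27360 (6.23 CPM).

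**Figure D2:**
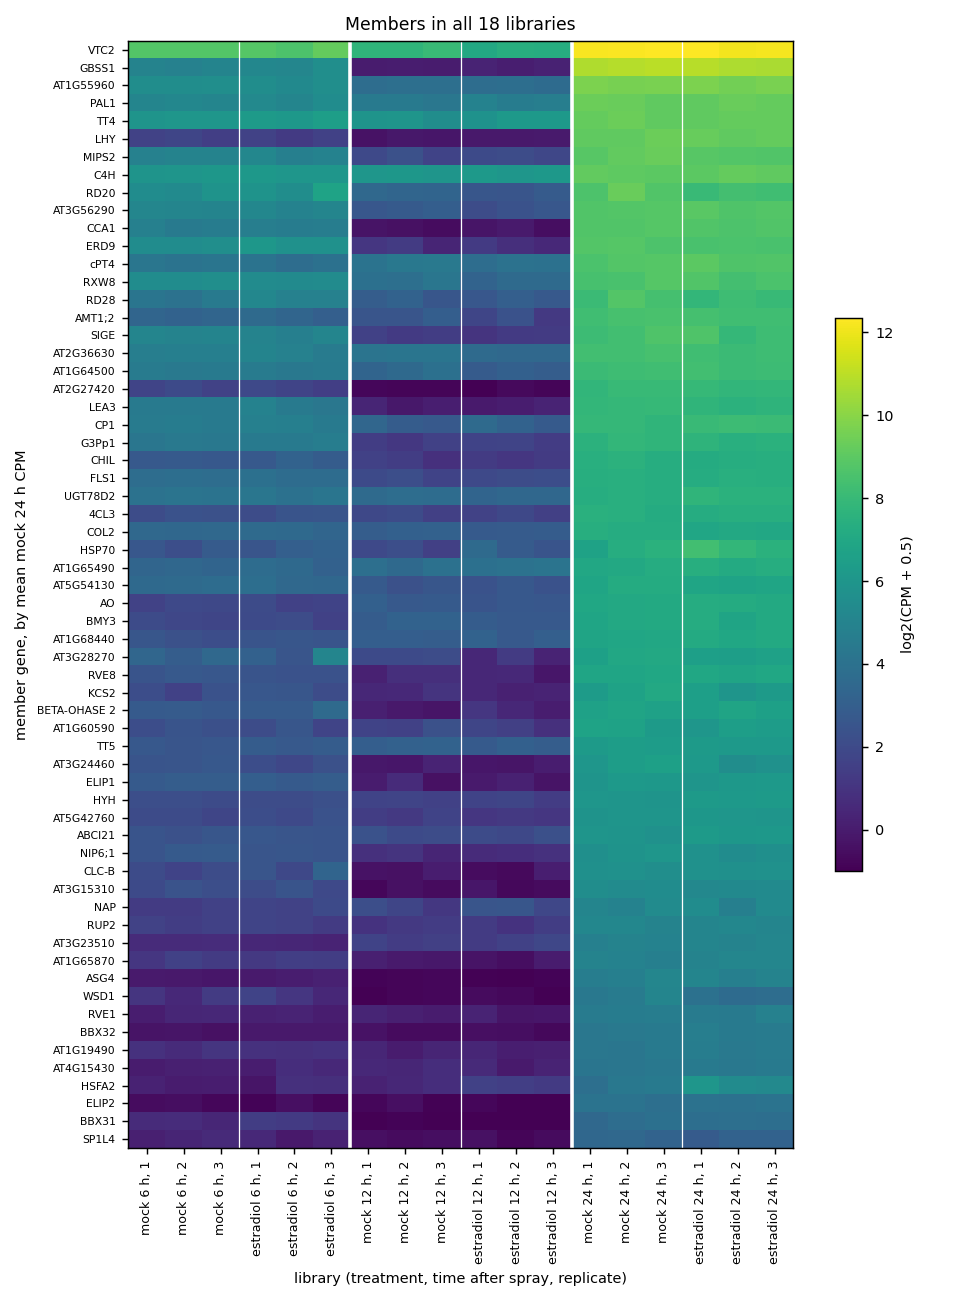
Level of each of the 62 members (rows, ordered by their mean in mock leaves at 24 h) in each of the 18 libraries (columns), as log2(CPM + 0.5) on the colour scale. The 6 columns of 24 h, mock and estradiol, are the brightest in every row, and in most rows the columns of 12 h are darker than those of 6 h.

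The estradiol libraries took no part in the choice, and there the same rise was tested. All 62 members passed the filter on low counts, and all 62 were higher in estradiol leaves at 24 h than at 6 h, where 33.3% of the 19227 genes tested were called higher (edgeR's quasi-likelihood test, Benjamini-Hochberg adjusted p below 0.05). All 62 were also higher at 24 h than at 12 h, against 35.0% of all genes. No member was lower in either comparison, where 32.5 and 38.7% of all genes were lower. A rise of 8-fold or more was called for 57 members against 6 h and for 62 against 12 h, where 1.47 and 3.23% of all genes rose as far. The median member rose by 3.92 on the log2 scale against 6 h and by 6.02 against 12 h, beside medians of 0.01 and -0.04 over all genes. For every member, each of the 3 estradiol libraries of 24 h lay above each of the 6 earlier ones. The share of all genes that did so was not counted, so this separation is not read further. The members' summed share of gene counts lay between 0.125 and 0.159% after 6 h, between 0.0501 and 0.0547% after 12 h and between 1.71 and 1.90% after 24 h. Upper-quartile scaling moved the median of all genes in the comparison with 12 h to -0.12 and that of the members to 5.94.

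The makeup of the RNA moved with time as well. The mesophyll markers summed to between 78772 and 85002 CPM in the libraries of 6 h, between 39987 and 45965 CPM after 12 h and between 88059 and 104520 CPM after 24 h. A list of 11 genes named vascular, none at 0 in a group, summed to between 2162 and 2626 CPM after 6 h. This sum was between 2142 and 3337 CPM after 12 h and between 5641 and 7528 CPM after 24 h. The list includes GLDP1, a glycine decarboxylase gene that is not specific to veins. In estradiol leaves its median gene rose by only 0.38 on the log2 scale against 6 h and 0.39 against 12 h. The sum therefore does not stand for all 11. The part of either list in the members' rise was not tested. In whole leaves, fewer cells of a type and less RNA per cell cannot be told apart.

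**Figure D3:**
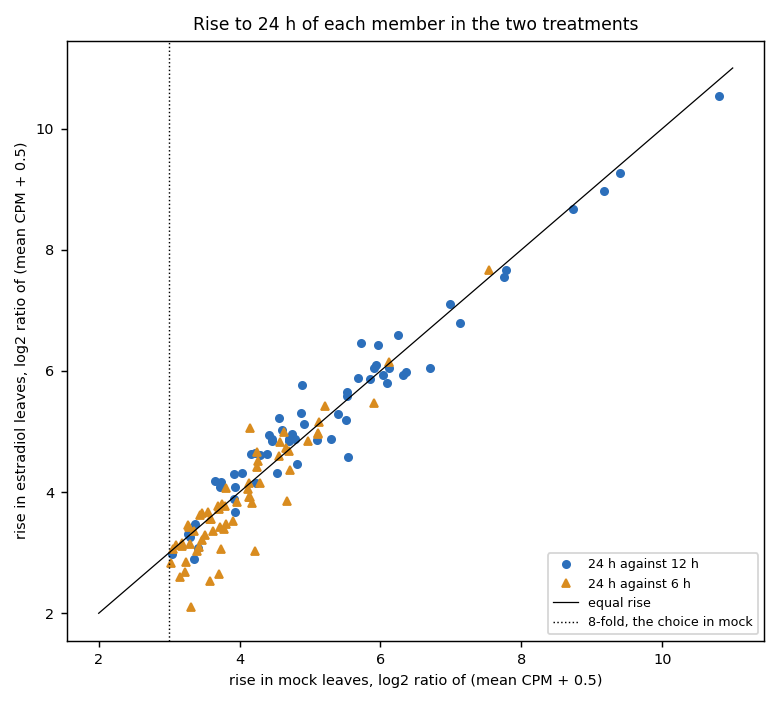
Rise of each member to 24 h in mock leaves (horizontal axis) and in estradiol leaves (vertical axis), each as the log2 ratio of (mean CPM + 0.5), against 12 h (blue circles) and against 6 h (orange triangles). The dotted line marks the 8-fold limit that chose the members in mock, and the points follow the line of equal rise, with RD20 farthest below it against 6 h.

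The clock factors LHY and CCA1 were nearly absent at 12 h and abundant at 24 h under both sprays. LHY had 2.64, 2.91 and 2.26 CPM in the mock libraries at 6 h, 0.281, 0.416 and 0.383 CPM at 12 h and 539, 550 and 651 CPM at 24 h. In estradiol leaves it had 2.61, 1.93 and 2.47 CPM, then 0.433, 0.428 and 0.465 CPM, then 602, 540 and 592 CPM. The sprays overlapped at 6 and at 24 h, and at 12 h every estradiol library lay above every mock library by a difference that was not called (adjusted p = 0.71, edgeR). LHY's rise in estradiol leaves was 265-fold against 6 h (log2 8.05 ± 0.11 SE) and the largest of all members against that time. This rank depended on a single library: the log2 rise of ELIP2 was 7.06, and 8.06 without estradiol library 2 of 6 h. Against 12 h LHY's log2 rise of 10.89 ± 0.13 was smaller than those of AT2G27420 (12.23 ± 0.20) and GBSS1 (11.85 ± 0.18). AT2G27420 had only 0, 4 and 2 counts in the estradiol libraries of 12 h. Its rise was 11.52 without estradiol library 1 of 12 h and 13.17 without library 2. Its standard error does not cover this range, so the order of AT2G27420 and GBSS1 is not settled.

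CCA1, its partner, followed the same course from a higher level at 6 h. Its mock libraries held 27.2, 21.9 and 24.3 CPM at 6 h, 0.321, 0.265 and 0.177 CPM at 12 h and 421, 418 and 462 CPM at 24 h. With estradiol it had 25.8, 23.6 and 24.7 CPM, then 0.352, 0.463 and 0.194 CPM, then 431, 401 and 422 CPM. The sprays overlapped at all 3 times. The rise in estradiol leaves was 18-fold against 6 h (log2 4.17 ± 0.09) and log2 10.79 ± 0.13 against 12 h (edgeR, adjusted p = 2.93e-17 and 1.54e-20).

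The other members of this family were lower in level. RVE8 rose from means of 5.66 and 1.04 CPM in mock to 117 CPM, RVE1, which promotes growth through auxin, from 0.771 and 0.658 to 23.7 CPM, and ASG4, a further MYB-like gene, from 0.430 and 0.0680 to 28.7 CPM. In estradiol leaves at 12 h ASG4 had 2 counts in all 3 libraries together, and its level at 24 h was 1393 times higher (exact 95% interval 385 to 11510). COL2, a relative of the flowering regulator CONSTANS, rose from 10.8 and 7.88 CPM to 157 CPM in mock, and 22.2% of its 50-base words are shared with the overlapping gene AT3G02390, so its counts are uncertain.

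A morning clock list held 18 genes, 5 of them members that were chosen for this rise. Of its 13 non-members 11 rose and 2 fell in estradiol leaves from 12 to 24 h, with a median of 6.10 on the log2 scale, beside 35.0 and 38.7% of all genes. Against 6 h, 10 rose and 2 fell, with a median of 1.32, beside 33.3 and 32.5% of all genes. Among the exceptions, RVE2 had 39.2 CPM at 12 h and 0.965 CPM at 24 h, CO had 3.64 and 0.131 CPM, and both fell. PRR9, which represses CCA1 and LHY later in the day, had 31.3, 0.0181 and 53.8 CPM in estradiol leaves at 6, 12 and 24 h. It was thus already high at 6 h in these leaves, and by the mock values it was no member. Of 12 evening clock genes, none a member, 8 fell and 2 rose from 12 to 24 h, among them TOC1 (85.0 to 4.57 CPM) and ELF3 (100 to 1.80 CPM) among those that fell and GI (1.80 to 71.0 CPM) among those that rose. These non-members were chosen after their values were seen.

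**Figure D4:**
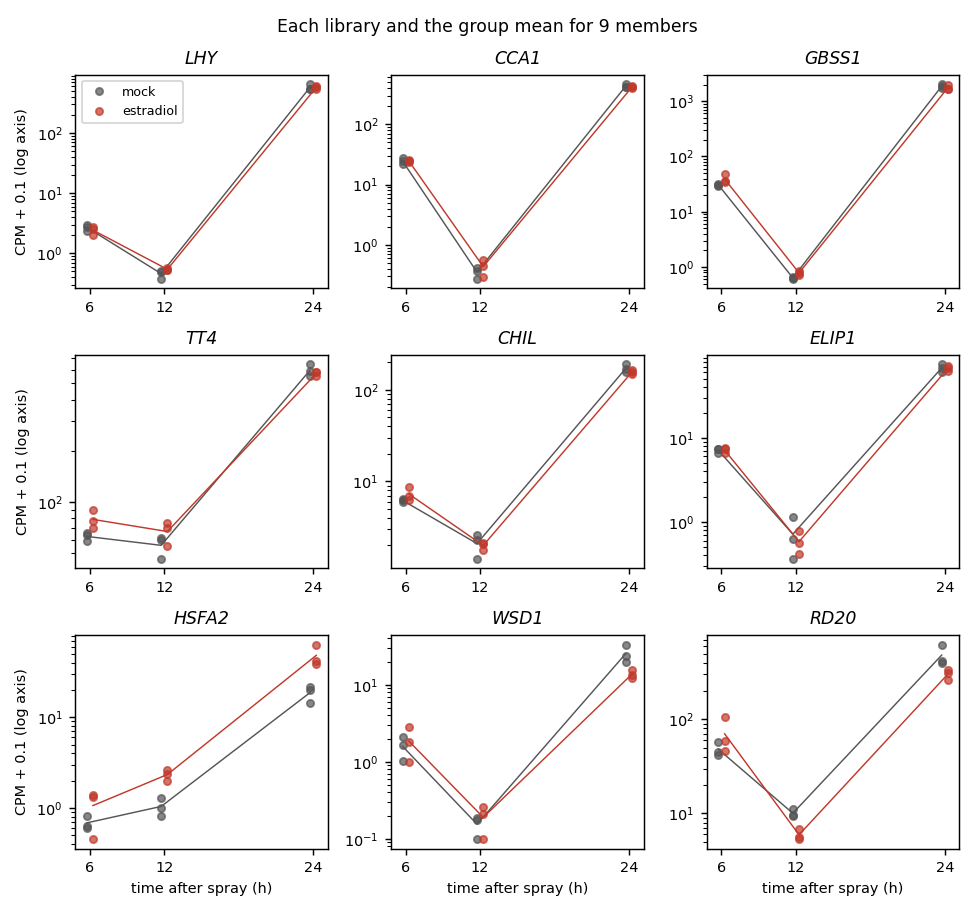
CPM plus 0.1, on a log axis, against hours after the spray for 9 members. Each point is 1 library, lines join group means, and mock (grey) and estradiol (red) are set slightly apart. LHY, CCA1 and GBSS1 show near-identical courses under both sprays with a minimum at 12 h, while HSFA2 runs higher with estradiol and WSD1 and RD20 end lower.

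The members of light and UV-B signalling reached levels from 12.9 CPM (BBX31) to 336 CPM (SIGE) in mock leaves at 24 h. HYH, the homologue of HY5, held 4.15, 4.08 and 3.60 CPM in mock at 6 h, 2.73, 2.80 and 2.50 CPM at 12 h and 63.3, 62.9 and 59.6 CPM at 24 h. Its estradiol libraries at 24 h held 76.8, 71.8 and 77.4 CPM, all above the mock ones. RUP2, a repressor of the UV-B receptor, reached 34.3 CPM in mock at 24 h from 2.42 and 1.79 CPM. The B-box genes BBX32 and BBX31 reached 20.5 and 12.9 CPM. BBX31 had no count in any estradiol library at 12 h and 1027 counts over the 3 libraries at 24 h, at least 417-fold higher against a floor of 3 counts over the group. SIGE, a sigma factor of the plastid RNA polymerase, reached 336 CPM from 32.3 and 2.16 CPM. A light signalling list held 32 genes, 5 of them members. Of the 27 non-members 21 rose and 4 fell from 12 to 24 h in estradiol leaves, beside 35.0 and 38.7% of all genes, and 17 rose and 6 fell from 6 h, beside 33.3 and 32.5%. HY5 itself went from 3.50 and 5.54 CPM to 23.7 CPM and was no member.

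The phenylpropanoid and flavonoid pathway contributed 8 members that cover successive steps. The general steps are phenylalanine ammonia-lyase (PAL1), cinnamate hydroxylase (C4H) and a coumarate ligase (4CL3). Chalcone synthase (TT4), CHIL and chalcone isomerase (TT5) build the flavonoid skeleton, flavonol synthase (FLS1) makes flavonols, and UGT78D2 adds glucose to them. PAL1 held 33.1, 35.7 and 33.6 CPM in mock at 6 h, 21.9, 22.2 and 19.1 CPM at 12 h and 645, 632 and 542 CPM at 24 h. TT4 held 58.8, 65.3 and 63.6 CPM, then 59.2, 60.9 and 46.2 CPM, then 589, 644 and 553 CPM. Its estradiol libraries held 76.8, 69.9 and 89.7 CPM at 6 h, all above mock, then 55.0, 75.1 and 70.4 CPM, then 552, 578 and 579 CPM.

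TT4 and C4H had the higher starting levels and the smaller folds. C4H rose 8.95-fold in estradiol leaves against 6 h and 11.6-fold against 12 h, the smallest rise of any member against 12 h. TT4 rose 7.69-fold and 12.5-fold. 4CL3 and CHIL started lower: 4CL3 went from 4.25 and 3.08 CPM to 164 CPM in mock, and CHIL from 6.09 and 1.99 CPM to 172 CPM. FLS1 reached 167 CPM, UGT78D2 165 CPM and TT5 82.8 CPM. None of the 8 was called between the sprays at 24 h. Of the 20 genes of a flavonoid and anthocyanin list 19 were tested, 7 of them members, and of the 12 tested non-members 11 rose and none fell in estradiol leaves against each earlier time, beside 35.0 (12 h) and 33.3% (6 h) of all genes that rose. The non-members PAL2 (92.9, 28.3 and 582 CPM at 6, 12 and 24 h) and UGT78D1 (83.7, 29.7 and 269 CPM) were abundant. The anthocyanin genes DFR and LDOX stayed under 1 CPM in the group means.

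The most abundant member, VTC2 of vitamin C synthesis, is given here with members of photoprotection and plastid metabolism. VTC2 held 438, 434 and 441 CPM in mock at 6 h, 216, 216 and 265 CPM at 12 h and 4813, 4966 and 5191 CPM at 24 h. Its estradiol libraries held 455, 399 and 595 CPM, then 131, 168 and 162 CPM, then 5240, 4418 and 4580 CPM. The sprays overlapped at 6 and 24 h and not at 12 h. Per kilobase of transcript VTC2 had 2277 CPM in mock at 24 h, the highest of the members, ahead of GBSS1 with 814 CPM per kilobase. ELIP1 rose from 6.42, 7.26 and 7.30 CPM at 6 h and 0.521, 1.06 and 0.265 CPM at 12 h to 60.7, 74.6 and 68.1 CPM in mock. Its relative ELIP2 stayed under 0.3 CPM in all early libraries and reached 16 CPM. With 3 counts over the estradiol libraries of 12 h, its level at 24 h was 482 times higher (interval 164 to 2339). Those counts lay in a single library and the other 2 held none. The interval does not cover such differences between libraries. BETA-OHASE 2, which hydroxylates beta-carotene on the way to xanthophylls, reached 102 CPM in mock, and cPT4, a prenyltransferase, 424 CPM. Of 16 tested non-members of a photoprotection list 12 rose and 4 fell from 12 to 24 h in estradiol leaves, beside 35.0 and 38.7% of all genes, and 9 rose and 6 fell from 6 h, beside 33.3 and 32.5%.

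Carbon metabolism contributed 3 members. GBSS1 held 30.6, 29.0 and 31.9 CPM in mock at 6 h, 0.521, 0.567 and 0.530 CPM at 12 h and 1714, 1864 and 2023 CPM at 24 h. In estradiol leaves it held 35.5, 34.5 and 47.4 CPM, then 0.758, 0.606 and 0.698 CPM, then 1959, 1662 and 1644 CPM. It was slightly higher in every estradiol library at 6 and at 12 h, by differences that were not called (adjusted p = 0.514 and 0.57, edgeR). MIPS2, an inositol phosphate synthase, rose from 30.4 and 3.50 CPM to 560 CPM in mock, and BMY3, of the beta-amylase family, from 3.22 and 8.09 CPM to 130 CPM. Of 25 tested non-members of a list of starch, sugar and starvation genes 7 rose and 18 fell from 12 to 24 h in estradiol leaves, beside 35.0 and 38.7% of all genes, among the latter the starch phosphorylase PHS2 (302 to 23.7 CPM) and the glucan water dikinase SEX1 (721 to 158 CPM), both of starch breakdown.

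Several members encode transporters and other membrane proteins. AMT1;2, an ammonium transporter, held 9.92, 8.54 and 9.85 CPM in mock at 6 h, 5.33, 5.29 and 7.49 CPM at 12 h and 308, 351 and 370 CPM at 24 h. With estradiol the values were 11.7, 9.90 and 7.74 CPM, then 2.93, 4.56 and 1.86 CPM, then 342, 302 and 312 CPM. RD28, a plasma membrane aquaporin, reached 350 CPM in mock, but 21.7% of its 50-base words are shared with PIP2B, so reads could be split between them. RXW8, a membrane protein, reached 394 CPM, the glycerol-3-phosphate transporter G3Pp1 211 CPM, the ABC protein ABCI21 58.5 CPM, the boron channel NIP6;1 57.7 CPM and the chloride channel family member CLC-B 51.5 CPM. Of 14 tested non-members of a nitrate and ammonium list 9 rose and 2 fell from 12 to 24 h in estradiol leaves, beside 35.0 and 38.7% of all genes, and the relative AMT1;1 fell, from 17.0 to 7.34 CPM.

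Genes known from drought and surface wax formed a further group. RD20, a caleosin of lipid droplets, held 44.7, 41.2 and 58.0 CPM in mock at 6 h, 11.1, 9.57 and 9.22 CPM at 12 h and 399, 623 and 421 CPM at 24 h. Estradiol libraries of RD20 held 58.4, 46.4 and 105 CPM, then 5.55, 5.28 and 6.67 CPM, then 264, 333 and 311 CPM. Estradiol library 3 at 6 h stood high, and with it RD20 had the smallest rise of any member against 6 h, 4.57-fold (adjusted p = 2.45e-07, edgeR). The same library was high for AT3G28270, with 33.7 CPM beside 8.41 and 5.19 CPM, which rose 6.20-fold. Without that library the rise was 15.1-fold (log2 3.92, adjusted p = 2.79e-11, edgeR). ERD9, a glutathione transferase, reached 434 CPM in mock from 45.8 and 1.48 CPM, and rose 6.90-fold in estradiol leaves against 6 h.

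WSD1, a wax ester synthase, held 1.57, 0.932 and 1.97 CPM in mock at 6 h, 0, 0.0756 and 0.0884 CPM at 12 h and 19.7, 23.3 and 33.2 CPM at 24 h. Its estradiol libraries held 2.70, 1.70 and 0.890 CPM, then 0.163, 0.107 and 0 CPM, then 15.4, 12.3 and 13.4 CPM. KCS2, which elongates very long fatty acids, reached 106 CPM in mock, and LEA3, of the late embryogenesis abundant proteins, 237 CPM. CP1, a calcium-binding protein, reached 227 CPM and the NAC factor NAP, known from leaf senescence, 35.0 CPM. NAP rose 11.8-fold in estradiol leaves against 12 h, among the 4 smallest rises with C4H, TT4 and AT1G65490 (14.4-fold).

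Heat shock genes gave 2 members. HSFA2, a heat-inducible heat shock factor, held 0.706, 0.505 and 0.533 CPM in mock at 6 h, 0.721, 0.908 and 1.18 CPM at 12 h and 14.5, 20.1 and 21.5 CPM at 24 h. Its estradiol libraries held 0.354, 1.29 and 1.23 CPM, then 2.52, 2.28 and 1.90 CPM, then 63.7, 42.2 and 39.0 CPM. At 12 and at 24 h every estradiol library lay above every mock library. The chaperone gene HSP70 held 102, 159 and 182 CPM in mock and 316, 228 and 186 CPM with estradiol at 24 h, and its coefficient of variation over mock libraries, 27.7%, was the highest of the members. The median over members was 8.23% in mock and 7.28% in estradiol leaves at 24 h.

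AO, the aspartate oxidase of NAD synthesis, reached 131 CPM in mock from 3.06 and 6.85 CPM, and SP1L4, of a family of microtubule-associated proteins, reached 10.2 CPM. The 17 members without a symbol included AT1G55960 (46.6, 13.8 and 824 CPM in mock at 6, 12 and 24 h), AT3G56290 (33.1, 6.47 and 435 CPM) and AT2G36630 (26.5, 17.4 and 331 CPM). AT2G27420 had a smaller ratio of 69.8, next to that of LHY, and went from 2.99 and 0.0716 CPM to 243 CPM. AT3G15310 is annotated as a pseudogene, reached 44.8 CPM and shares 26.4% of its 50-base words with another locus. In all, 15 members overlap another counted gene and 6 share over 10% of their 50-base words with one. How the authors' counting treated such reads is not known, and the counts of those genes are uncertain.

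Estradiol switches on PAD4 in this line, and at each time most members were not called between the sprays. The mock libraries in these comparisons also chose the members, so the counts are set against the share of all genes and read no further. At 6 h no member was called by edgeR, where 0.0260% of all genes were called higher and 0.0104% lower. DESeq2 and limma-voom called 0 as well, and 10 members had an unadjusted p below 0.05, beside 7.57% of all genes. Every estradiol library lay above every mock library for 9 members and below for 4, beside 6.79 and 6.85% of all genes. The median member differed by 0.07 on the log2 scale and the median gene by 0.01.

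At 12 h 2 members (3.2%) were higher with estradiol and 8 (12.9%) were lower, beside 4.64 and 5.07% of all genes. The heat shock genes were the higher ones: HSP70 by 2.44-fold (log2 1.29 ± 0.36, adjusted p = 0.0304, edgeR) and HSFA2 by 2.31-fold (log2 1.21 ± 0.36, adjusted p = 0.0402). HSP70 held 11.7, 6.63 and 5.12 CPM with estradiol and 3.33, 4.12 and 2.39 CPM in mock, without overlap. Both calls were lost in several of 14 other fits, HSP70 in 5 and HSFA2 in 7, and 0 were left without any 1 of the mock libraries or without estradiol library 1.

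Among the 8 lower members AMT1;2 had the largest difference, 1.99-fold (adjusted p = 0.00928, edgeR), without overlap. AT1G64500 was 1.68-fold lower, with 6.55, 8.09 and 7.29 CPM against 9.30, 11.5 and 14.8 CPM in mock, and AT2G36630 was 1.57-fold lower, with 11.9, 10.9 and 10.8 CPM against 17.0, 17.6 and 17.5 CPM. Those 2 calls held in all 14 other fits (highest adjusted p 0.0231 and 0.00217, edgeR and alternatives). VTC2 was 1.54-fold lower and lost its call only without estradiol library 1 (adjusted p = 0.0526). RXW8 was 1.48-fold, AT3G56290 1.42-fold, UGT78D2 1.27-fold and COL2 1.23-fold lower. Leaving out estradiol library 1 left 2 lower members, and without mock library 2 or 3 there were 5 or 3.

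The members were at their highest at 24 h. At that time 2 (3.2%) were higher with estradiol and 10 (16.1%) were lower, beside 8.43 and 6.54% of all genes. Every estradiol library lay above every mock library for 8 members and below for 10, beside 19.0 and 7.23% of all genes. For the other 44 the sprays overlapped. In 3 members, 4.84%, the sprays were apart at 24 h and also, in the opposite direction, at 6 or 12 h, beside 1.77% of all genes (group means of at least 1 CPM at the earlier time). The median member differed by -0.10 on the log2 scale and the median gene by -0.03. Of the 62 differences 44 were negative and 18 positive, where 43.2% of all genes had a positive difference. The number was the same under DESeq2 size factors and upper-quartile scaling, which use the same libraries. The mock libraries of 24 h also chose the members, so these signs are not read further.

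HSFA2 was 2.45-fold higher (log2 1.30 ± 0.19, adjusted p = 8.03e-05, edgeR), a call that held in all 14 other fits. HYH was 1.15-fold higher (adjusted p = 0.0388), a call lost in 6 of them, among them those without the mock or estradiol library 1 or 3. HSP70 had a log2 difference of 0.65 ± 0.24 and was not called (adjusted p = 0.0766). Among 15 tested heat shock genes 7 were higher with estradiol and none lower at 24 h, beside 8.43 and 6.54% of all genes. Of the 7, 6 were not members, among them HSP90.1 (51.7 CPM in mock, 203 CPM with estradiol) and HSP101 (41.7 and 79.4 CPM).

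The lower members at 24 h were led by WSD1, 1.94-fold lower (log2 -0.96 ± 0.22, adjusted p = 0.00527, edgeR), and RD20, 1.69-fold lower (log2 -0.76 ± 0.23, adjusted p = 0.0345), both without overlap. AT3G24460 was 1.48-fold, RD28 1.44-fold, KCS2 1.43-fold and MIPS2 1.33-fold lower. COL2 was 1.32-fold lower, with 120, 131 and 126 CPM against 164, 153 and 154 CPM in mock (adjusted p = 0.000134), and its call alone among the 10 held in all 14 other fits. AT5G54130 was 1.31-fold, LEA3 1.24-fold and AT2G36630 1.20-fold lower. WSD1 lost its call with DESeq2 only (adjusted p = 0.0696). Leaving out mock library 2 or estradiol library 3 left 2 lower members, and leaving out mock library 3 or estradiol library 2 left 5.

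A wax and cutin list held KCS2 as its only member and did not hold WSD1. Of its 23 tested non-members 8 were lower and none higher with estradiol at 24 h, beside 6.54 and 8.43% of all genes, among the 8 the alkane-forming gene CER1 (52.5 CPM in mock, 28.4 CPM with estradiol) and CER3 (136 and 105 CPM). In the starch and sugar list 7 of 27 were lower, beside 6.54% of all genes, and neither GBSS1 nor BMY3 was among them. In the flavonoid list 1 of 19 was higher, beside 8.43% of all genes. It was UF3GT, with 0.698 CPM in mock and 1.88 CPM with estradiol. None of the clock factors LHY, CCA1, RVE8, RVE1 and ASG4 was called at any of the 3 times, and their log2 differences at 24 h were -0.08 ± 0.07, -0.13 ± 0.07, -0.03 ± 0.09, -0.04 ± 0.12 and 0.01 ± 0.10.

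**Figure D5:**
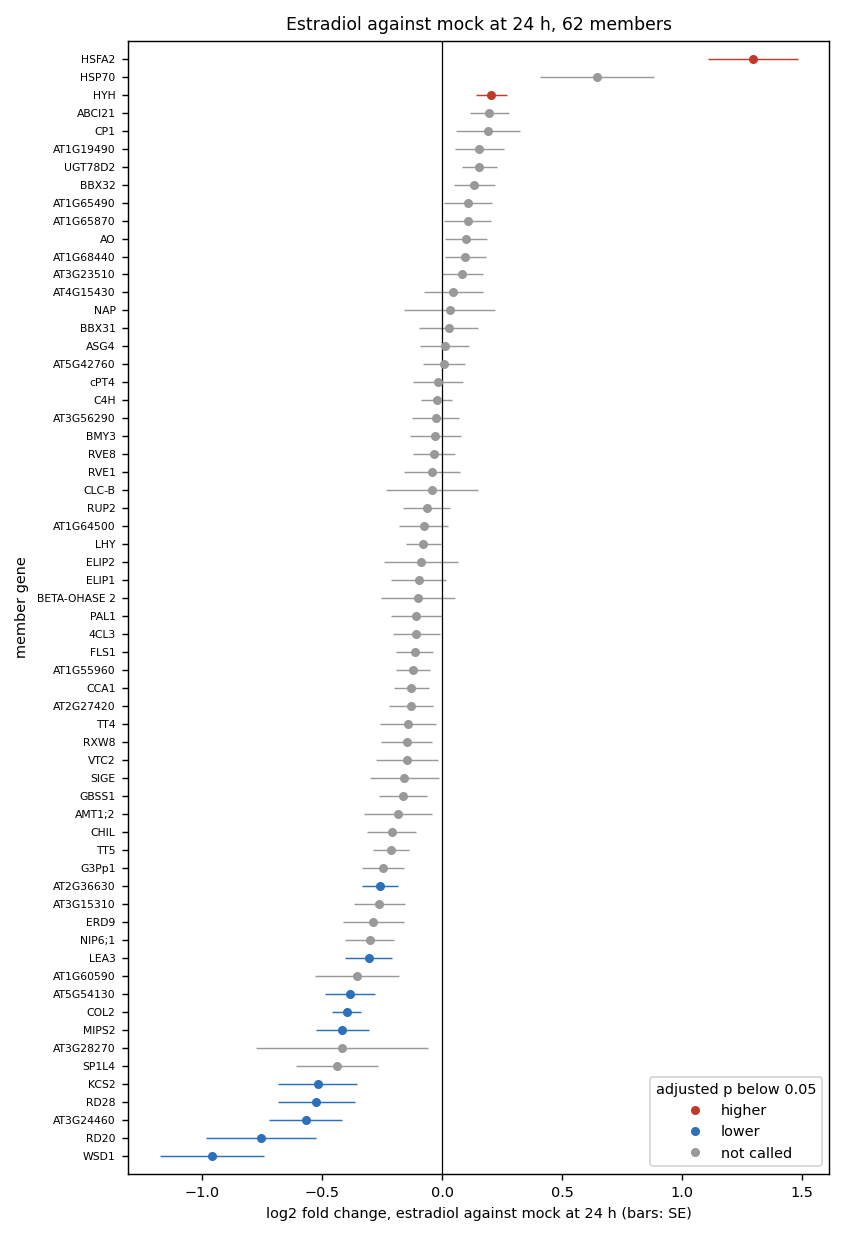
Log2 fold change of estradiol against mock at 24 h for the 62 members, ordered by size, with bars of 1 standard error from edgeR's fit. Red points are the 2 called higher, blue points the 10 called lower, and grey points were not called; HSFA2 stands at 1.30 and WSD1 at -0.96.

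The same choice made on the estradiol libraries also gave 62 genes, and 53 of them, 85.5% of either set, were in both. The 9 that met it in mock only were ERD9, NAP, C4H, RD20, BBX31, AT3G28270, TT4, SP1L4 and WSD1, with smaller ratios in estradiol leaves from 4.29 (RD20) to 7.87 (C4H). SP1L4 also missed the level limit there, with a mean of 7.96 CPM at 24 h. AT3G28270 missed it through estradiol library 3 at 6 h, without which its ratio was 12.9. With any 1 estradiol library left out, 51 to 54 members met it. The 9 that met it in estradiol only were HSP90.1, AT5G48570, AT1G07400, AT2G20560, AT3G09440, AT1G70000, AT2G41250, AT3G27350 and IAGLU. HSP90.1, which missed the limit in mock with a ratio of 6.52, had 11.6 with estradiol, and AT5G48570 had 3.33 and 8.76. No difference between these ratios was tested, since the mock ones chose the members.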

How the data were processed

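Polyadenylated RNA of leaves was sequenced in 18 libraries, 6 groups of 3, prepared with a TruSeq kit per the labels' protocols; groups and replicate numbers come from the titles. The authors deposited 1 table of counts, whole numbers of reads for each gene and library without any scaling. FastQC 0.11.2, TopHat2 2.0.10, HTSeq and build TAIR10 are named in the submitters' processing notes. The annotation release, strand setting and mode of counting are nowhere stated in them. The 5 classes of reads in no gene (5.76 to 6.71% of reads) were left out. Gene names and upstream sequences came from RefSeq's TAIR10.1, where 31912 of 32678 loci and all 62 members were found; the windows end at the RefSeq gene start.

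The members and the 24 gene lists were chosen with earlier results of these data known. Levels are CPM by column sums. Differences were tested with edgeR's quasi-likelihood F test (edgeR 4.0.16, limma 3.58.1, R 4.3.3) with 1 coefficient per group, TMM scaling and filterByExpr defaults, which kept 19227 genes (12 residual degrees of freedom, biological coefficient of variation 8.26%), with Benjamini-Hochberg adjustment over them. A standard error is the log2 fold change divided by the root of F, which can understate the error where a group has few counts. Estradiol 24 h against 6 and 12 h used libraries outside the choice. Differences between sprays in the rise to 24 h were not tested, because they contain the mock contrast that chose the members. Named genes were the 12 highest members, the 10 with the largest ratios, members in a list, called members, the smallest rises and those near the limits, with PAD4 and EDS1; other names were chosen after their values were seen. Grouping by role was also made then. List entries whose names matched another gene were dropped.

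Alternatives were DESeq2 1.42.0, limma-voom, other scalings and filters, the replicate block, only the contrast's libraries, each library left out, stricter calls, other limits for the members and members chosen on 1 mock library of 24 h and tested on the others. On simulated counts for estradiol against mock at 24 h (18984 genes), 78% of 1.5-fold and 94% of 2-fold changes were recovered and 7.46% of calls were false. For estradiol 24 h against 12 h (18992 genes), 84 and 92% were recovered and 5.05% of calls were false. In both simulations the changed genes were few and had ample counts, and every other gene had the same mean in all groups. The rates therefore do not cover members with few counts at an early time. Replicates of a group all differed by more than counting noise (chi-square over its degrees of freedom 2.96 to 33.9).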

Additional observations from a re-analysis of the deposited data

Results flagged for a closer look

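For 3 members the estradiol libraries lay on one side of the mock libraries at an early time and on the other side at 24 h, without overlap, so that the sprays differed in opposite directions, beside 1.77% of all genes tested; the difference between times was not tested. ERD9, a glutathione transferase, had an estradiol to mock ratio of mean CPM of 1.265 at 6 h (58.0 against 45.8 CPM) and 0.8656 at 24 h (375 against 434 CPM). UGT78D2, a flavonol glucosyltransferase, had 0.8043 at 12 h (libraries of 9.48, 10.4 and 10.5 CPM against a mock mean of 12.6 CPM) and 1.174 at 24 h (193 against 165 CPM). AO, aspartate oxidase, had 0.7987 at 12 h (5.47 against 6.85 CPM) and 1.13 at 24 h (148 against 131 CPM). Of these 6 differences, that of UGT78D2 at 12 h was called.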

How the results depend on the processing

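The counts of members that rose in estradiol leaves were 62 in every fit. The counts between sprays depended on the processing, and the cause was not tested except where fewer libraries entered. At 12 h the 2 higher members became 1 with the replicate block, 0 with limma-voom and 0 at an adjusted p below 0.01, and 0 to 2 with a library left out. The 8 lower became 5 at an adjusted p below 0.01, 0 with a 2-fold minimum and 2 to 9 with a library left out. At 24 h the 2 higher became 1 without a filter, at an adjusted p below 0.01, with a 2-fold minimum and with only the contrast's libraries, and 1 to 2 with a library left out. The 10 lower became 5 with DESeq2, 2 at an adjusted p below 0.01, 0 with a 2-fold minimum and 2 to 13 with a library left out. With members chosen on a single mock library of 24 h and tested on the others, the lower count was 12 of 62, 2 of 62 and 5 of 71 for libraries 1, 2 and 3. A ratio of at least 4 gave 164 members and of at least 16 gave 21. With TMM-scaled CPM there were 79, among them all 62, and with a mock library left out 62 to 64. The 53 members that also met the choice in estradiol leaves were 51 to 54 with an estradiol library left out, an alternative chosen after seeing the data. No direction reversed among 480 values of single members in other fits, of which 109 lost their call. The replicate numbers did not pair the libraries: deviations of libraries with the same number correlated from -0.31 to 0.24, and the block changed the called counts at 12 h as given above. Depth limits the 12 h values: 3 members had 3 or fewer counts in the estradiol group.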
